A study of Mus musculus with 6 samples.

Results

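The 38 genes described here repair DNA, signal its damage, or carry copper or drugs across the cell membrane. They were listed by symbol, with earlier results of these data known, and each symbol matched 1 Ensembl identifier among the 53465 genes of the count table. Of them 31 belong to 7 repair and damage-signalling classes and 7 to 2 transporter classes. Ribosome-protected fragments (footprints, the short mRNA pieces that translating ribosomes shield from nuclease) were counted in ID8, a tumour line from mouse ovarian surface epithelium. The titles name 3 libraries WT and 3 KO, read here as the sgNC control cells and the sgNat10 cells of the design text. Nat10 encodes the enzyme that acetylates cytidine in RNA to N4-acetylcytidine. All cells were held with cycloheximide (100 µg/mL, 2 minutes) before lysis, and the labels name no platinum treatment of these cells. The labels do not say whether the KO cells are 1 clone or a pool, nor whether replicates were grown separately. The p-values thus cover the spread of these 6 libraries, which may be technical.

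Cisplatin kills dividing cells by linking bases within and between DNA strands. Nucleotide excision repair cuts out links within a strand, the Fanconi anaemia proteins open links between strands and hand the break to homologous recombination, and translesion polymerases copy past lesions that remain. Checkpoint kinases halt the cycle meanwhile, and mismatch repair can turn a platinum adduct into a death signal. Copper transporters are held to set how much cisplatin stays in the cell. ABC exporters pump drugs out of cells, and no role in carrying cisplatin is taken for them here. Platinum with its derivatives is the backbone of ovarian cancer treatment, and defects of BRCA1 or BRCA2 sensitise ovarian tumours to it.

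Library totals ran from 1687466 to 3126208 counts. Nat10 footprints were counted 168, 128 and 292 times in the WT libraries and 315, 133 and 445 times in the KO libraries, 112 ± 53.1 against 106 ± 43.1 CPM (SD, n = 3). The groups overlapped, with a log2 fold change of -0.074 (SE 0.48), so KO is used below as the libraries' label and not as a measured loss of Nat10 footprints. All 10 markers of mesothelium and ovarian surface epithelium were detected, with a summed level of 5994 to 6514 CPM in the WT libraries and 4358 to 5153 CPM in the KO libraries (CPM is edgeR's usual unit, a count relative to the TMM-scaled library size). Markers of other cell types were at or near 0. The 6 leukocyte markers summed to at most 14.5 CPM and the 4 fibroblast ones to at most 8.51 CPM, with Cd3e, Itgam and Thy1 among those at 0 counts everywhere. The 4 endothelial markers were all detected, summing to at most 5.996 CPM in WT and 1.86 CPM in KO. The lower epithelial sum moved with the KO label, and its part in the results below was not tested. Gene counts in each library had a local peak well above 1, at 15, 21 and 39 counts in WT and 42, 46 and 60 in KO, called the modal count. A gene's count divided by it is given as molecule equivalents, a rough scale of how many original fragments stand behind a count. On this scale WT replicates 1 and 2 held 112498 and 102320 in total, and WT replicate 3 and the KO libraries, despite their counts, 46442 to 60506.

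No repair or transport gene passed the test between the libraries labelled WT and KO. Footprints of 36 of the 38 genes were detected in at least 1 library and of 25 in all 6, and 33 passed the count filter. Of these 33, 0 passed edgeR's quasi-likelihood test at an adjusted p under 0.05, against 0.402% of all 8200 genes tested. At an unadjusted p under 0.05 there was 1, Polh, against 6.49% of all genes. DESeq2 called 0 of the 33 (2.89% of all genes) and limma-voom 0 (1.13%). Log2 fold changes, KO minus WT throughout, were positive for 18 and negative for 15 of the tested genes. Their median was 0.11, beside -0.016 over all tested genes. Every KO library lay above every WT library for 3 of them (Polh, Atr and Fancd2), where 6.94% of all tested genes did so, and below for 3 (Atp7a, Brca2 and Xrcc1), where 7.93% did. In a bulk library, more cells making a protein and more footprints per cell cannot be told apart.

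**Figure D1:**
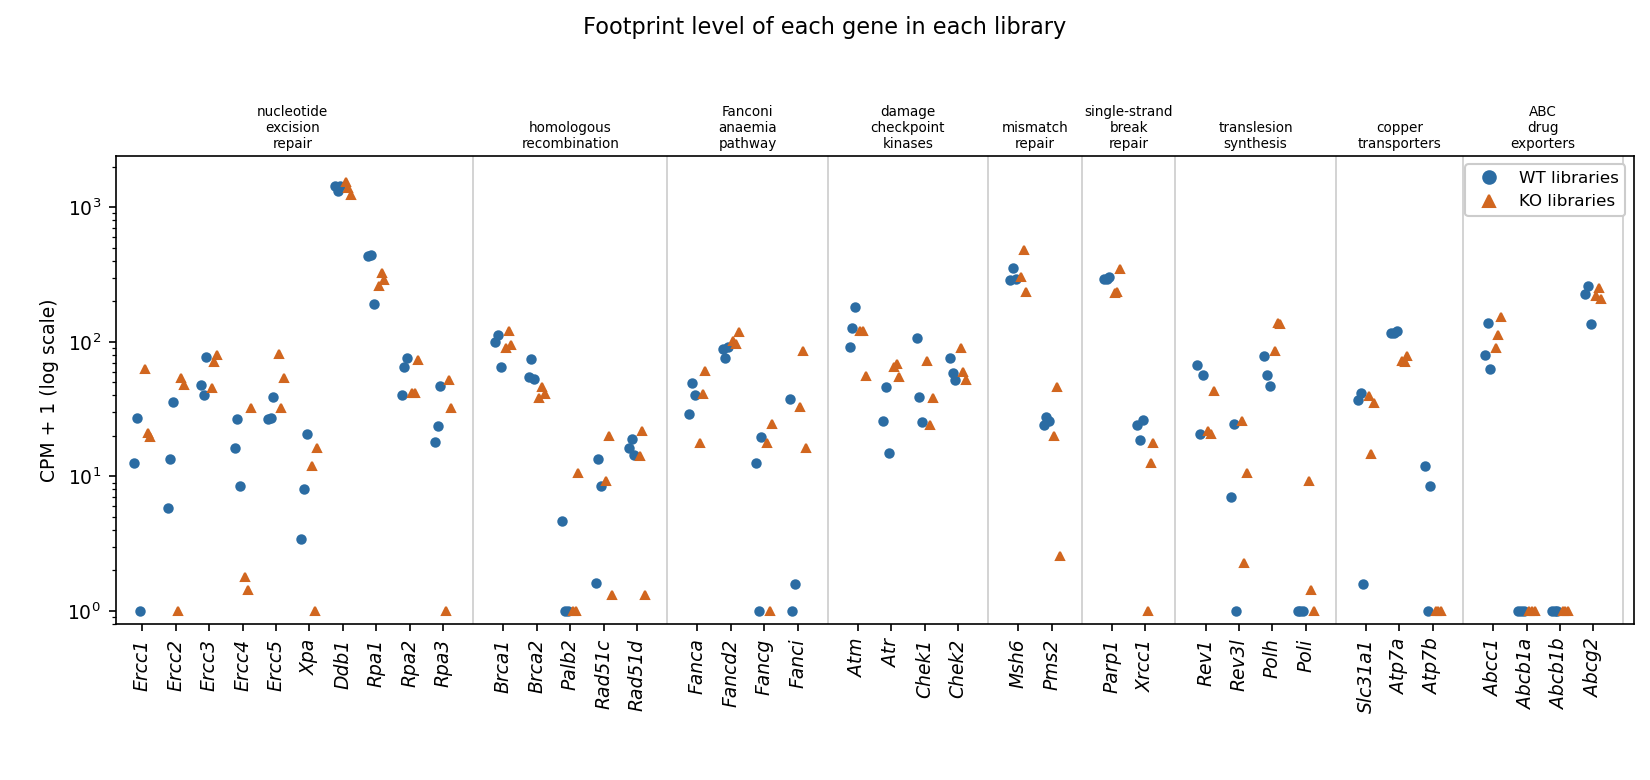
Footprint level of each of the 38 genes in each library (y axis, CPM plus 1 on a log scale; genes on the x axis by class; circles WT, triangles KO). Ddb1 is the most abundant at 1234 to 1548 CPM, and many genes have a library at 0 beside others above 10 CPM.

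Among the nucleotide excision repair genes, Ddb1 and Rpa1 were measured closely, and Ercc1 and its nuclease partner Ercc4 were near the floor. Ddb1, the adaptor of the CUL4 ubiquitin ligases that with DDB2 finds damaged bases (chr19:10605327-10629819 in GRCm38, as all positions here), was counted 2374, 2640 and 2475 times in WT and 3968, 3222 and 3978 times in KO. The KO libraries have higher totals, and after scaling the WT mean was 1398 ± 68.4 CPM and the KO mean 1387 ± 157 CPM (SD, n = 3), with overlapping groups. Its log2 fold change was -0.011 (SE 0.16, 95% interval -0.36 to 0.34, edgeR adjusted p = 1.0). Rpa1, the large subunit of the single-strand binding protein RPA, had 715, 874 and 328 counts in WT and 665, 753 and 928 in KO, with WT replicate 3 the lowest of all 6 libraries after scaling. Its levels were 354 ± 142 CPM and 289.9 ± 31.5 CPM (SD, n = 3), a log2 fold change of -0.29 (SE 0.31), which was -0.59 without WT replicate 3, -0.11 without WT replicate 1 and -0.11 without WT replicate 2. The smaller RPA subunits overlapped as well: Rpa2 had 64, 129 and 129 counts in WT and 104, 95 and 231 in KO, and Rpa3 28, 45 and 80 against 0, 119 and 101. Per kilobase of coding sequence, Rpa1 stood at 167 CPM (98.2 to 226 over the 6 libraries), Rpa2 at 68.1 (48.0 to 92.1) and Rpa3 at 77.2 (0 to 140.4), so that the 3 subunits of a complex built in equal parts did not show equal footprint density, Rpa2 lying below Rpa1 in every library range while Rpa3 overlapped both. Rpa3 shares 42.3% of its 28-nt coding windows with a processed pseudogene, Gm6195. That pseudogene held 0 counts in every library, but reads matching both may have been left out of the counting.

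The helicases and nucleases of the pathway had lower levels than Ddb1 and Rpa1. Ercc3 and Ercc5 averaged 59.4 and 42.1 CPM over the 6 libraries, above the median of 36.6 CPM over all tested genes. Ercc1, Ercc2 and Ercc4 averaged 22.9, 25.3 and 13.4 CPM, below it. Ercc3 (XPB), a helicase of the transcription factor TFIIH that opens DNA around the lesion, had 77, 78 and 132 counts in WT and 114, 164 and 256 in KO, a log2 fold change of 0.26 (SE 0.57) that ran from 0.072 without WT replicate 2 to 0.59 without WT replicate 3. Ercc5 (XPG), the nuclease that cuts 3′ of the damage, had 42, 52 and 65 against 205, 73 and 169 (0.88, SE 0.74, and 0.50 without KO replicate 1). Both overlapped between groups after scaling. Ercc1, partner of the nuclease that cuts on the other side, had 19, 52 and 0 counts in WT and 157, 47 and 60 in KO, and that nuclease itself, Ercc4 (XPF), 25, 51 and 13 against 2, 1 and 100. KO replicate 1 held the most Ercc1 and almost no Ercc4. Ercc2 (XPD), the other TFIIH helicase, had 8, 25 and 60 against 0, 123 and 151, and the scaffold Xpa 4, 14 and 34 against 28, 0 and 49, every one of these Xpa counts below the modal count of its library. Ercc1, Ercc2 and Xpa overlap genes on the opposite strand, and whether the counting used strand is a point the sources used here do not give. Ncbp1, which overlaps Xpa, held 287 to 834 counts, far more than Xpa, so Xpa counts are uncertain. Gm26852, which overlaps 21.0% of the windows of Ercc2, held 0.

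None of the 4 tested homologous recombination genes was called. Brca1, the ubiquitin ligase that commits a break to recombination (chromosome 11, 101488764 to 101551955), had 163, 221 and 111 counts in WT and 228, 277 and 303 in KO. That was 91.2 ± 24.1 CPM and 100.5 ± 15.9 CPM (SD, n = 3), a log2 fold change of 0.14 (SE 0.42, 95% interval -0.77 to 1.05). Brca2, a mediator of strand exchange at breaks (chromosome 5, 150522630 to 150570329), had 89, 146 and 90 counts against 96, 105 and 128, or 59.7 ± 11.5 CPM and 40.7 ± 3.85 CPM (SD, n = 3). Each KO library was below each WT library after scaling, but the log2 fold change of -0.55 (SE 0.60, 95% interval -1.84 to 0.73, edgeR adjusted p = 1.0) was smaller than its error. Rad51c and Rad51d, which act with the BRCA proteins in recombination, were near the floor, Rad51c at 1, 25 and 13 counts in WT and 21, 44 and 1 in KO, and Rad51d at 25, 36 and 23 against 34, 48 and 1. Palb2, the bridge between BRCA1 and BRCA2, ranged from 0 to 6 counts in WT and from 0 to 31 in KO, under the count filter.

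Of the Fanconi anaemia genes, all 4 were tested and all 4 had positive fold changes, though that of Fanca was near 0, with 0 called. Fancd2 (chromosome 6, 113531682 to 113597017) and its partner Fanci form the clamp that is ubiquitinated at a crosslink. Fancd2 had 144, 149 and 157 counts in WT and 255, 221 and 376 in KO, or 84.3 ± 8.64 CPM and 103.6 ± 11.6 CPM (SD, n = 3), with no overlap and a log2 fold change of 0.30 (SE 0.41, edgeR adjusted p = 1.0). Fanci had 60, 0 and 1 counts in WT against 81, 198 and 49 in KO. Its log2 fold change of 1.83 (SE 1.61) was the highest of the 33 tested genes and rested on WT replicates 2 and 3, where it was almost absent. It reached 7.05 without WT replicate 1, an estimate against nearly empty libraries. Fanca, a core complex subunit, had 46, 97 and 68 counts against 43, 94 and 193, and Fancg, another, 19, 0 and 32 against 43, 0 and 76. Fanca and Fanci overlap Zfp276 and Polg on the opposite strand over 7.23% and 6.06% of their coding windows. Polg held 0, 12 and 40 counts in WT and 41, 62 and 199 in KO. That is a range like that of Fanci, but Polg was highest in KO replicate 3 and Fanci in KO replicate 2. Whether Polg reads entered the Fanci counts was not tested.

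The checkpoint kinases split evenly in sign. Atr, the kinase that responds to stalled forks (chromosome 9, 95857597 to 95951781), had 41, 91 and 24 counts in WT and 164, 158 and 173 in KO. Its level was 28.1 ± 16.0 CPM against 61.8 ± 7.25 CPM in the KO libraries (SD, n = 3), with every KO library above every WT library. The log2 fold change was 1.13 (SE 0.72, 95% interval -0.40 to 2.67, edgeR adjusted p = 1.0), and the gene averaged 2.98 molecule equivalents. Atr shares 5.32% of its coding windows with other genes, chiefly the antisense gene Gm16794, which held 0 counts. Chek1, the kinase that ATR activates, had 174, 76 and 42 counts against 183, 54 and 119, with a log2 fold change of -0.35 (SE 0.73) that turned to 0.49 without WT replicate 1. Atm, the kinase of double-strand breaks, had 150, 253 and 311 counts in WT and 305, 278 and 176 in KO (132 ± 44.6 and 97.5 ± 37.2 CPM, SD, n = 3), a log2 fold change of -0.44 (SE 0.44) that ran from -0.65 without WT replicate 1 to -0.16 without KO replicate 3. Its target Chek2 had 122, 115 and 88 against 227, 136 and 163, a log2 fold change of 0.11 (SE 0.53). Atr was thus the only kinase of the 4 whose groups did not overlap, and whether its difference differed from that of the others was not tested.

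Mismatch and single-strand break repair each had an abundant and a scarce gene. Msh6, which recognises mismatches and platinum adducts (chromosome 17, 87975062 to 87990892), had 473, 705 and 503 counts in WT and 773, 1125 and 757 in KO. Its levels of 310.2 ± 36.4 and 339 ± 128 CPM (SD, n = 3) overlapped, with KO replicate 2 the highest and KO replicate 3 the lowest of the 6, and the log2 fold change was 0.13 (SE 0.28, 95% interval -0.48 to 0.74). Parp1, the poly(ADP-ribose) polymerase that is the target of PARP inhibitors (chromosome 1, 180568924 to 180601254), had 478, 585 and 518 counts against 590, 545 and 1120, or 294 ± 4.70 and 270.3 ± 66.8 CPM (SD, n = 3). Its log2 fold change was -0.12 (SE 0.26, 95% interval -0.69 to 0.45), and it was -0.35 without KO replicate 3 and -0.0079 without KO replicate 1. Pms2, the mismatch repair nuclease subunit, had 38, 53 and 43 counts in WT and 49, 106 and 5 in KO. Msh6 and Pms2 share 11.7% and 12.2% of their coding windows with other annotated genes, chiefly Gm11855 (0 or 1 counts per library) and Gm42421 (0 counts). Xrcc1, the scaffold that PARP1 recruits to nicks, had 38, 35 and 44 in WT against 0, 27 and 54 in KO. After scaling all 3 KO libraries lay below WT for Xrcc1, though KO replicate 3 (16.8 CPM) was below WT replicate 2 (17.5 CPM) by little. The log2 fold change was -1.22 (SE 1.98). It was -0.62 without KO replicate 1, the library at 0, and -1.92 without KO replicate 3, and its KO counts were all below the modal counts of 42, 46 and 60.

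Polh came closest to a difference. It encodes polymerase eta, which copies past platinum links within a strand (chromosome 17, minus strand, 46171355 to 46202645). Its counts were 127, 112 and 79 in WT and 218, 322 and 432 in KO, or 77.2, 56.0 and 45.7 CPM against 85.0, 138 and 134 CPM. Every KO library was above every WT library, although KO replicate 1 exceeded WT replicate 1 by little. The means were 59.6 ± 16.1 and 119 ± 29.5 CPM (SD, n = 3), a log2 fold change of 0.997 (SE 0.45, 95% interval 0.024 to 1.97). The unadjusted p was 0.045 and the edgeR adjusted p 0.737, so over all genes the gene did not pass. Its direction was the same in the 14 other fits that tested it, at 0.84 to 1.23 when single libraries were left out, and 7 of the 14 gave an unadjusted p under 0.05. These fits reuse the same libraries, and with groups that do not overlap, leaving out a library could hardly turn the sign. Rev1, the scaffold that exchanges translesion polymerases, had 108, 39 and 97 counts in WT and 53, 46 and 135 in KO, a log2 fold change of -0.78 (SE 0.86). It shares 22.2% of its coding windows with other genes, chiefly with Eif5b on the opposite strand, which held 1166 to 2914 counts, so Rev1 counts are uncertain. Rev3l, the catalytic subunit of polymerase zeta, had 10, 47 and 0 counts against 64, 3 and 31. Poli, polymerase iota, had 0 counts throughout WT and 0 to 21 in KO, below the modal count in every library, and no fold is given.

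**Figure D2:**
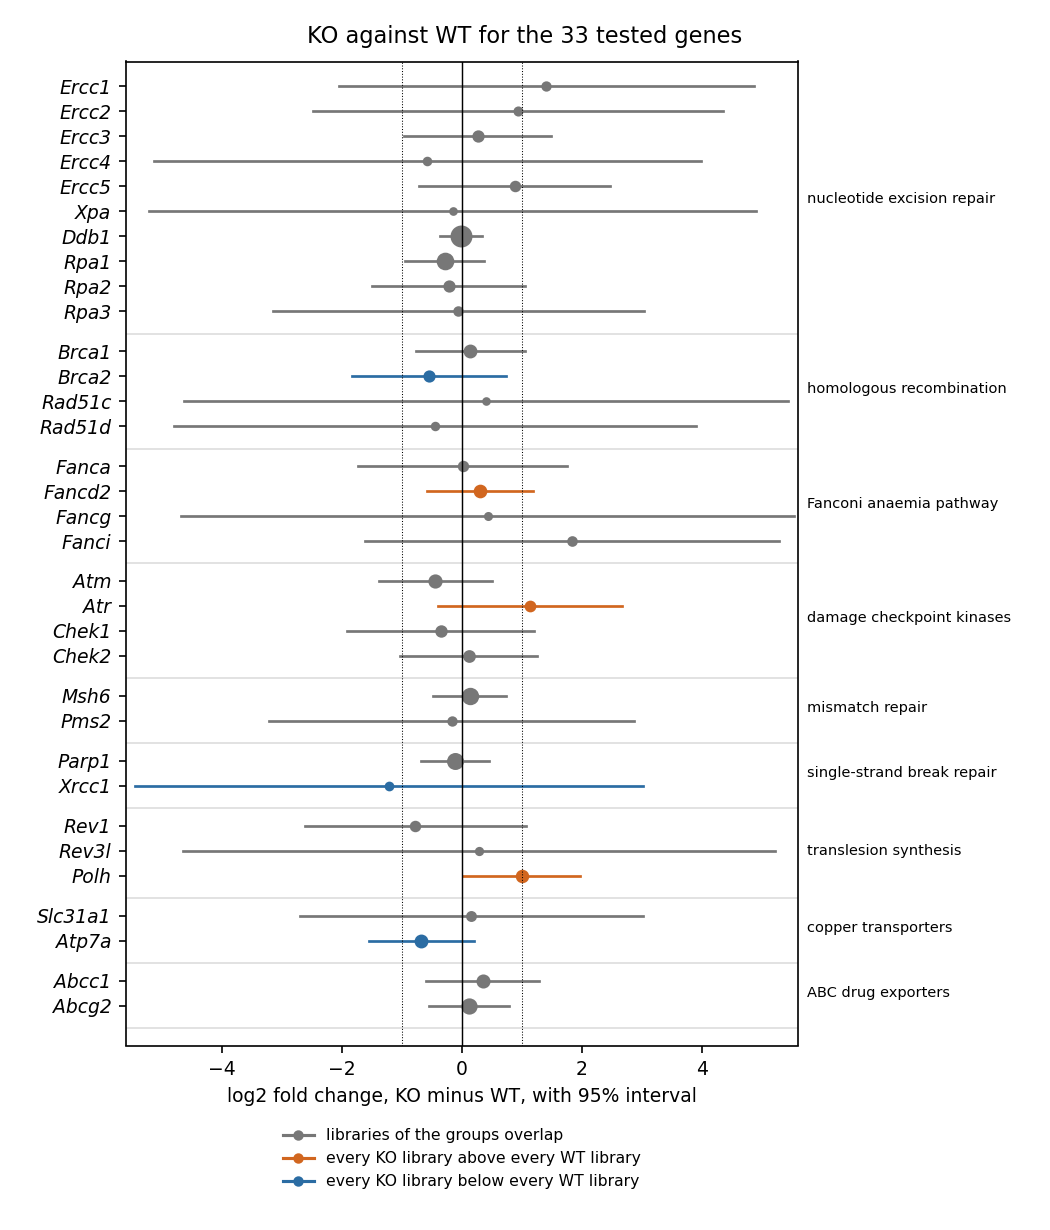
Log2 fold change (x axis, KO minus WT) with its 95% interval for the 33 tested genes by class; larger dots mark more molecule equivalents, orange and blue mark genes whose KO libraries all lie above or below WT, and dotted lines stand at a 2-fold change in either direction. Only Polh has an interval that leaves out 0 (0.024 to 1.97), and the intervals of Ddb1, Rpa1, Msh6, Parp1 and Abcg2 stay inside the dotted lines.

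Of the copper transporters, Atp7a had separate groups without passing the test. This P-type ATPase pumps copper out of the cytosol and has been tied to platinum export (X chromosome, 106027276 to 106124926). Atp7a had 188, 229 and 208 counts in WT and 183, 162 and 250 in KO, which after scaling gave 114.3, 114.4 and 120.3 CPM against 71.4, 69.4 and 77.6 CPM. The groups were tight and apart, 116 ± 3.40 and 72.8 ± 4.27 CPM (SD, n = 3). The log2 fold change was -0.68 (SE 0.41, 95% interval -1.55 to 0.19) and the edgeR adjusted p 0.991. In edgeR the spread of a gene is estimated partly from other genes of like level. The common coefficient of variation over all tested genes, scarce ones included, was 0.99, which is not the spread applied to Atp7a. Tested genes of like depth (median 6.83 molecule equivalents) had a median SE of 0.47. Without single libraries the log2 fold change of Atp7a stayed between -0.73 and -0.63. As its groups did not overlap, leaving out a library could hardly turn the sign. Slc31a1 (CTR1), the copper importer through which cisplatin is reported to enter, had 59, 81 and 1 counts in WT and 98, 32 and 109 in KO, a log2 fold change of 0.16 (SE 1.34) whose sign turned without WT replicate 3 (-0.42) and without KO replicate 1 (-0.092). Atp7b, the related exporter, ranged from 0 to 18 counts in WT and had 0 throughout KO. It was too low to test, and no fold is given.

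Drug exporters of the ABC family were represented by 2 of their 4 genes. Abcg2, the breast cancer resistance protein (chromosome 6, 58584523 to 58695676), had 373, 520 and 232 counts in WT and 561, 582 and 665 in KO, or 207 ± 65.2 and 225 ± 22.1 CPM (SD, n = 3). WT replicate 3 was the lowest at 134 CPM and the groups overlapped, with a log2 fold change of 0.12 (SE 0.31, 95% interval -0.55 to 0.78) that was -0.12 without that library. Abcc1 (MRP1), which exports glutathione conjugates, had 129, 275 and 106 counts against 228, 259 and 491, or 92.4 ± 39.9 and 117 ± 32.2 CPM (SD, n = 3). Its log2 fold change was 0.34 (SE 0.44), and it ran from 0.11 without KO replicate 3 to 0.75 without WT replicate 2. Abcb1a and Abcb1b, the 2 mouse genes for the multidrug pump P-glycoprotein, had 0 counts in all 6 libraries.

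The P-glycoprotein genes are close copies, and the sources used here do not say how reads with several matches were counted. Their coding sequences were 88.0% identical, and 34.0% of the 28-nt windows of Abcb1a and 30.0% of those of Abcb1b also occur in another gene. The longest identical stretch within an exon, 186 bases at chr5:8702387-8702572 in Abcb1a and chr5:8824707-8824892 in Abcb1b (GRCm38, plus strand, from GENCODE M21 transcripts), is shown because no footprint inside it can be told apart.
Abcb1a and Abcb1b: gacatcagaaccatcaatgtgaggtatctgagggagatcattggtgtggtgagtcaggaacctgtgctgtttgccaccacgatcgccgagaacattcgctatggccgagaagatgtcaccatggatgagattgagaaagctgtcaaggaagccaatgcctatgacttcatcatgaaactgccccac
The window that differs most, with the 17 differing bases in capitals, shows where a footprint names its gene, at chr5:8683384-8683411 and chr5:8810558-8810585.
Abcb1a: gtgAGGccGaTaAAaGAGCCatGTtTGC
Abcb1b: gtgGACccAaCaGTaCTCTGatCAtCAG
Of the 3801 windows in each gene, 2507 in Abcb1a and 2660 in Abcb1b occur in no other gene, and with 0 counts in total these held none either. Among all 38 genes, 22 share no window with another gene, and 7 share over 10% of theirs.

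Summed by class, most levels overlapped between groups. The sum of the 10 excision repair genes was 1979 ± 61.7 CPM against 1961 ± 88.6 CPM in the KO libraries (SD, n = 3), of which Ddb1 made up 70.7%. Homologous recombination stood at 175 ± 38.5 and 164.9 CPM on average, the checkpoint kinases at 277 ± 16.2 and 268.9 ± 73.6 CPM, mismatch repair at 335 ± 37.9 and 361 ± 150 CPM, single-strand break repair at 316 ± 7.85 and 279.8 ± 73.5 CPM, and the ABC exporters at 299 ± 101 and 342 ± 29.8 CPM. Translesion synthesis stood at 117 ± 28.1 and 161 ± 23.4 CPM, and its log2 ratio of 0.47 became -0.43 without Polh. The sums of 2 classes did not overlap. The Fanconi anaemia sum was 163.6, 123 and 149 CPM in WT against 164.6, 219.7 and 215 CPM in KO, touching between WT replicate 1 and KO replicate 1. The copper transporter sum was 161, 155 and 128 CPM in WT and 109.6, 83.1 and 111 CPM in KO, and its log2 ratio of -0.55 was -0.15 without Atp7a. No test was made of these sums, and the share of other gene sets with separate sums was not computed.

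**Figure D3:**
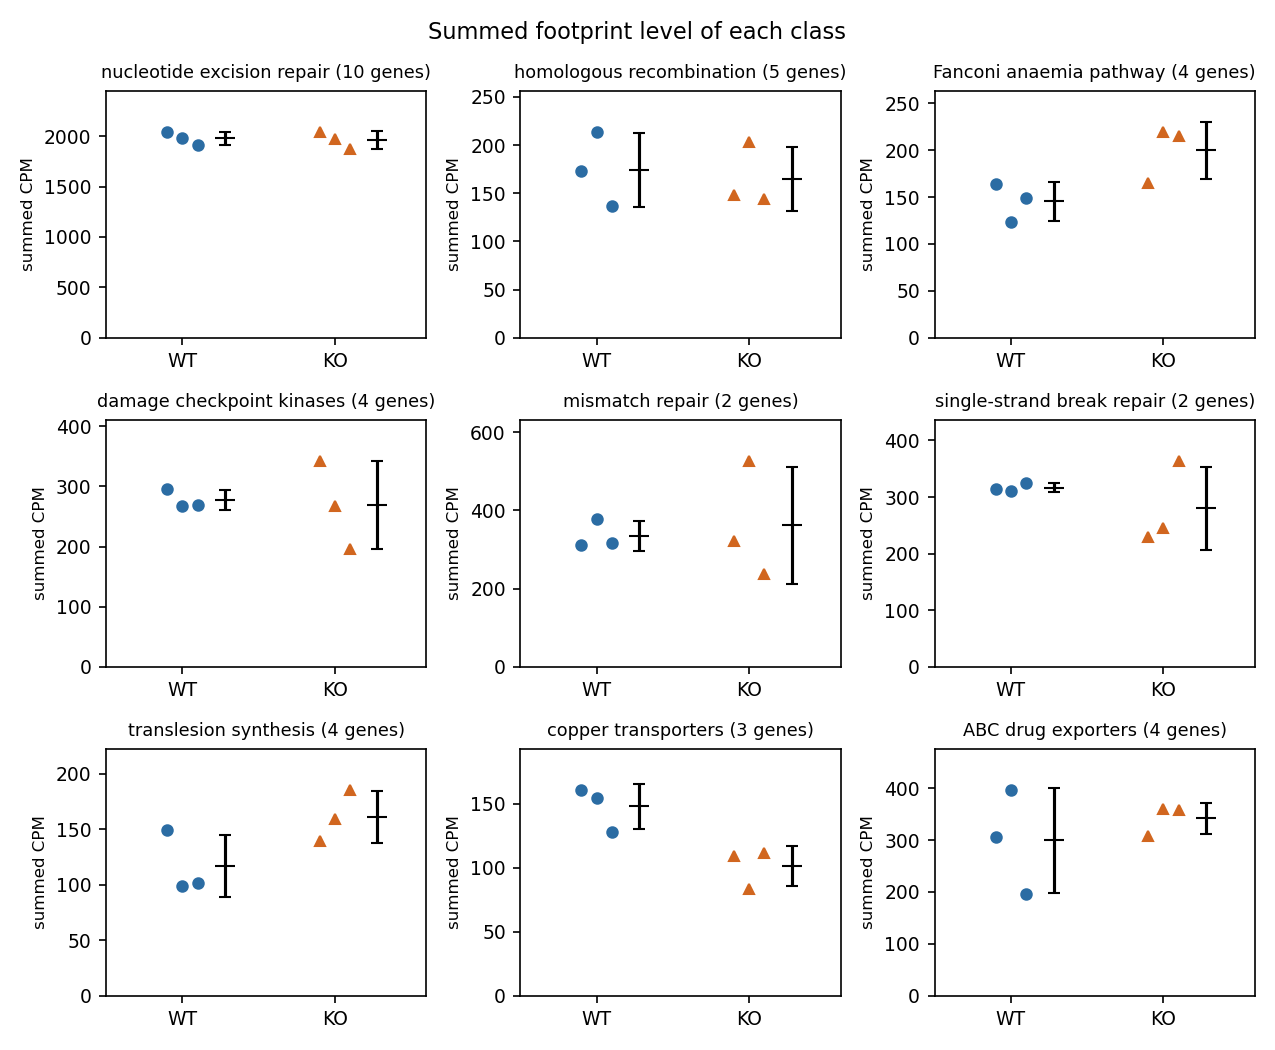
Summed CPM of each class in each library (circles WT, triangles KO; black bars mark the mean and SD of 3 libraries, each y axis starting at 0 with its own scale). Only the Fanconi anaemia genes (higher in KO) and the copper transporters (lower in KO) have groups that do not overlap.

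How small a change could be seen depended on the depth of each gene. For 5 of the 33 tested genes, Ddb1, Rpa1, Msh6, Parp1 and Abcg2, the 95% interval lay within a 2-fold change in both directions (15.2% of these genes, against 9.44% of all tested genes). These were also the 5 that averaged at least 10 molecule equivalents over the 6 libraries. Another 17 tested genes averaged under 3 molecule equivalents (51.5%, beside 55.7% of all tested genes), and none of their intervals stayed within a 2-fold change. A library with 0 or 1 counts occurred in 12 of the 33 (36.4%, beside 38.2%). Over all tested genes the median half-width of the interval fell from 5.34 on the log2 scale at 0.70 molecule equivalents to 1.01 at 6.83 and 0.40 at 78.9. The tested repair and transport genes had a median level of 44.9 CPM, against 36.6 CPM over all tested genes, and a median coding length of 2577 bases, against 1473 bases. Their coding GC content was 48.9%, against 52.1%.

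**Figure D4:**
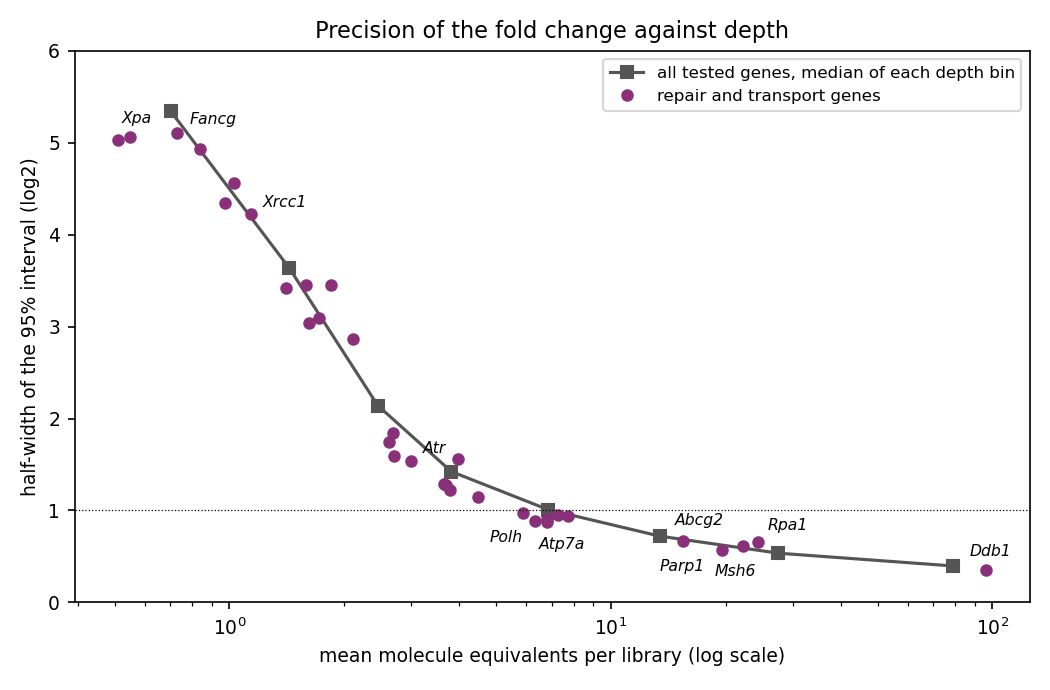
Half-width of the 95% interval of the log2 fold change (y axis) against mean molecule equivalents per library (x axis, log scale); circles are the 33 tested repair and transport genes and squares the medians of all tested genes in 8 depth bins. The circles lie near the squares, with half-widths above 5 for Xpa, Fancg and Rad51c and 0.35 for Ddb1.

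The other genes of these pathways, 149 in 11 lists, were read from the same fit. Of them 115 were tested and 0 were called by edgeR at an adjusted p under 0.05, against 0.402% of all tested genes. At an unadjusted p under 0.05 there were 0 higher and 5 lower, where 6.49% of all tested genes passed in either direction. Fold changes were negative for 73 and positive for 42 (36.5% positive, beside 49.0% of all tested genes), with a median of -0.23 beside -0.016 over all genes. Every KO library was below every WT library for 12 of the 115 and above for 2, where 7.93% and 6.94% of all tested genes were so. Negative values made up 14 of 18 among the partners of homologous recombination (median -0.51), 12 of 14 for the checkpoint kinases (median -0.50), 4 of 5 for mismatch repair (median -0.84), 6 of 8 for translesion synthesis (median -0.15) and 3 of 3 for ABC exporters (median -0.93). They were 14 of 26 for excision repair (median -0.15), 6 of 11 for the Fanconi anaemia pathway (median -0.078), 7 of 14 for single-strand break repair (median -0.019), 4 of 8 for end joining (median 0.20), 2 of 5 for copper handling (median 0.0006) and 1 of 3 for other carriers (median 0.54). No test compared these lists with each other. Over 15 other fits the share of negative values ran from 57.4% with library totals to 70.4% with the replicate block.

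Where a gene is named from a list it is that with the smallest p, and of these Rad23b, H2afx, Xrcc5 and Abcc5 had an unadjusted p under 0.05. Rad23b, which binds the damage sensor XPC, stood at 674 ± 126 CPM against 326 ± 147 CPM in the KO libraries (SD, n = 3), with a log2 fold change of -1.05 (SE 0.31, edgeR adjusted p = 0.329). Rad23b passed with DESeq2 (adjusted p = 0.026), limma-voom (0.00090), no count filter (0.011) and modal-scaled counts (0.020). Those fits called the most genes over all tested genes, and Rad23b passed in none of the rest. H2afx, the histone variant that ATM and ATR mark at breaks, had 123, 370 and 328 counts in WT and 149, 89 and 119 in KO, or 149.8 ± 65.0 and 44.4 ± 11.9 CPM. Its log2 fold change was -1.75 (SE 0.48, edgeR adjusted p = 0.245), and among the fits it passed only with DESeq2 (adjusted p = 0.0078). Xrcc5 (Ku80), which caps broken ends, stood at 71.2 ± 10.5 and 26.2 ± 2.47 CPM (log2 fold change -1.44, SE 0.63), and the exporter Abcc5 at 207 ± 77.6 and 96.4 ± 42.0 CPM (-1.10, SE 0.43). In other lists the smallest p belonged to Rad50 (-0.65, SE 0.31), the Fanconi core subunit Fancb (-0.91, SE 0.62), the endonuclease Apex1 (-0.60, SE 0.35), the metallothionein Mt1 (-0.76, SE 0.54), the translesion polymerase Polk (1.03, SE 0.54) and the volume-regulated channel subunit Lrrc8c (0.54, SE 0.42). Polk stood at 49.9 ± 23.5 CPM against 102 ± 40.0 CPM with overlapping groups.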

How the data were processed

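Ribosome profiling libraries of ID8 cells, 3 labelled WT and 3 labelled KO, were compared. Per the labels' protocols, reads of 25 to 34 nt were kept, rRNA and tRNA reads removed with Bowtie, and the rest aligned to GRCm38 (mm10). The authors deposited raw counts per Ensembl gene. The submitters' processing notes also name featureCounts and DESeq2 without a role, while annotation, strand setting and the treatment of multiple matches or duplicates were not given in the sources used here. Of 53465 identifiers 53360 matched GENCODE M21. The main fit, across all genes, was edgeR's robust quasi-likelihood test (edgeR 4.0.16, R 4.3.3) with TMM factors and filterByExpr, with Benjamini-Hochberg adjustment over 8200 genes and calls at 0.05. Intervals are 95%. The pipeline was tested on simulated data. DESeq2 1.42.0 and limma-voom (limma 3.58.1) were among 15 other fits. The modal count is the peak of the smoothed histogram of gene counts from 8 to 150 (bandwidth 3). Shared windows are 28-nt coding windows found, on either strand, in a transcript of another gene. The members and gene lists were chosen with earlier results of these data known. Counts per library are given for members that passed the filter or reached 50 counts in a library, and the others by range. In other lists the gene with the smallest p is named, except for 1 that is not reported here. PCR duplicates may be counted repeatedly.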

Additional observations from a re-analysis of the deposited data

How the results depend on the processing

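In none of the 15 other fits was a member called, though each tested only 5 to 36 of the 38. Calls over all genes moved from 33 to 237 with DESeq2, 93 with limma-voom, 91 without a count filter and 110 with modal-scaled counts, and to between 6 and 29 when single libraries were left out. The median over the tested members, 0.11, was -0.11 with limma-voom, -0.016 with the replicate block and between -0.0072 and 0.071 without single libraries, so it has no settled sign. Library totals moved the median of all genes from -0.016 to 0.093. Over all tested genes, same-numbered libraries did not visibly deviate together (correlations of -0.017, -0.0026 and -0.0067 for replicates 1, 2 and 3). Noise in scarce genes could hide a shared deviation, so this cannot decide whether the numbers pair the libraries. The block called 38 genes and no member. The excision repair sum (log2 ratio -0.013) was 0.095 with library totals and 0.060 with modal-scaled counts. In an alternative chosen after seeing the data, leaving out the most abundant gene moved single-strand break repair to -1.22, translesion synthesis to -0.43 and copper transporters to -0.15, and, within the spread of the sums, checkpoint kinases from -0.045 to 0.24, mismatch repair from 0.11 to -0.17 and homologous recombination from -0.082 to -0.37.

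Of the 33 tested members 16 kept their sign in every fit that tested them. Where the groups did not overlap (Polh, Atr, Fancd2, Atp7a, Brca2 and Xrcc1), leaving out a library could hardly turn the sign. Ercc2 was -0.63 with limma-voom and -0.19 with the block, Rad51c -0.27 with limma-voom, Fanca -0.11 with limma-voom and -0.13 with the block, and Rpa3 0.067 with library totals. Ddb1 was 0.014 with DESeq2 and with median-ratio factors, 0.095 with library totals, 0.0066 with 50 counts in 3 libraries and 0.051 with modal-scaled counts. Without single libraries the sign turned for 16 members, whose values ran from -4.60 to 0.0091 for Ercc4, -0.83 to 0.88 for Xpa, -0.091 to 0.062 for Ddb1, -0.84 to 0.53 for Rpa3, -0.062 to 0.30 for Brca1, -0.69 to 1.15 for Rad51c, -1.19 to 0.12 for Rad51d, -0.44 to 0.39 for Fanca, -0.26 to 1.22 for Fancg, -0.89 to 0.49 for Chek1, -0.15 to 0.28 for Chek2, -0.20 to 0.33 for Msh6, -1.26 to 0.37 for Pms2, -0.82 to 1.95 for Rev3l, -0.42 to 0.65 for Slc31a1 and -0.12 to 0.32 for Abcg2. The cause of these turns was not tested. The other 17 kept their sign without single libraries, from 0.64 to 2.52 for Ercc1, 0.45 to 1.92 for Ercc2, 0.072 to 0.59 for Ercc3, 0.50 to 1.16 for Ercc5, -0.59 to -0.11 for Rpa1, -0.55 to -0.021 for Rpa2, -0.64 to -0.38 for Brca2, 0.20 to 0.37 for Fancd2, 0.92 to 7.05 for Fanci, -0.65 to -0.16 for Atm, 0.81 to 1.67 for Atr, -0.35 to -0.0079 for Parp1, -1.92 to -0.62 for Xrcc1, -1.22 to -0.46 for Rev1, 0.84 to 1.23 for Polh, -0.73 to -0.63 for Atp7a and 0.11 to 0.75 for Abcc1.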
